A study of Mus musculus with 16 samples.

Results

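The IL-1 family ligands and receptors described here were 10 genes chosen by name, of 39179 gene identifiers counted in the series. They comprised 4 cytokine ligands (Il1a, Il1b, Il33 and Il18), the receptor antagonist Il1rn, the ligand-binding receptors Il1rl1, Il1r1 and Il18r1, the shared accessory chain Il1rap and the decoy receptor Il1r2. They were measured by RNA sequencing of poly(A) RNA in bone marrow-derived mast cells (BMMCs), grown for 4 weeks with stem cell factor and IL-3 from the marrow of male C57BL/6 mice aged 8 to 10 weeks. The mice were wild type (PEP+/+) or mutant for PEST-domain-enriched tyrosine phosphatase (PEP-/-), which is encoded by Ptpn22. Every sample had been sensitized with IgE for 3 h. Cells of each genotype received IgE alone (IgE), or IgE and the antigen dinitrophenyl-albumin at 200 ng/ml for 1 h (IgE DNP). Others received IgE and the glucocorticoid dexamethasone at 100 nM for 8 h (IgE DEX), or all of these (IgE DNP DEX). The sources give the durations but do not state the order of the treatments. Each of the 8 conditions had 2 samples, so that there was no sample without IgE. How many mice or cultures stood behind the 2 samples of a condition is not given in the sources used here, and p-values measure the spread between these samples.

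Interleukin-1 family cytokines bind a specific receptor chain that then recruits an accessory chain, and the paired receptor signals through MyD88 and IRAK kinases to NF-kB and MAP kinases. IL-1α and IL-1β share the receptor encoded by Il1r1, IL-33 binds ST2, the product of Il1rl1, and IL-18 binds the product of Il18r1, while Il1rn and Il1r2 encode a soluble antagonist and a decoy that limit IL-1. Mast cells are known for constitutive ST2, through which IL-33 released from damaged epithelium elicits cytokines, and crosslinking of IgE on their surface by antigen induces cytokine transcription, which glucocorticoids repress.

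To show where transcription of the induced ligands and of the most abundant receptor starts, the 250 bases before each RefSeq transcription start of Il1a, Il1b, Il33 and Il1rl1 are printed 5′ to 3′ on the strand of the gene (RefSeq, GRCm38.p6). All 10 members matched the RefSeq table, with 17 windows in all. Capitals mark matches, on either strand, to short core motifs. They were TGANTCA as named for AP-1, TGACGTCA for CREB, AGATAA for GATA factors and GGAAA for NFAT, and 2 longer cores with free bases inside, given here by name, for NF-kB (10 bases) and for the palindromic glucocorticoid response element (15 bases). Matches to different motifs may overlap.
Il1a, chr2:129309973-129310222, minus strand: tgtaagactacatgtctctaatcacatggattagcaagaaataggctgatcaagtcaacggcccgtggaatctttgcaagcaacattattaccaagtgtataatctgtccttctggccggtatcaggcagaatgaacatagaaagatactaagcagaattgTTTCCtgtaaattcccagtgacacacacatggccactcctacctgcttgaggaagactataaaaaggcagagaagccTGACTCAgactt
Il1b, chr2:129371140-129371389, minus strand: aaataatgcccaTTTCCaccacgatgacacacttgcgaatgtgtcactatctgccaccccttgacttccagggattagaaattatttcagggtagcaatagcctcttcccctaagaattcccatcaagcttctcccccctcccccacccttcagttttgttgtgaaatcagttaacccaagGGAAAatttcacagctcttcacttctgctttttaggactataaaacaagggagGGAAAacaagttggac
Il33 upstream start, chr19:29924863-29925112, plus strand: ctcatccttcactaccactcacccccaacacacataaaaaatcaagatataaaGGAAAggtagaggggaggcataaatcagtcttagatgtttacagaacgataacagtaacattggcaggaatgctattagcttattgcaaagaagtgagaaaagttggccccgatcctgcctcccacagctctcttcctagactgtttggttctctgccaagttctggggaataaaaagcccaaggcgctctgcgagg
Il33 downstream start, chr19:29945540-29945789, plus strand: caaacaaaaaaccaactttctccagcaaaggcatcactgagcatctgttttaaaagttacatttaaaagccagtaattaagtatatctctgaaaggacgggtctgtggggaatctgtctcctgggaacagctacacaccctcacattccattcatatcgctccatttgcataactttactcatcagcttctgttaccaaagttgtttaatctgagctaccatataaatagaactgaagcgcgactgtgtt
Il1rl1 upstream start, chr1:40429320-40429569, plus strand: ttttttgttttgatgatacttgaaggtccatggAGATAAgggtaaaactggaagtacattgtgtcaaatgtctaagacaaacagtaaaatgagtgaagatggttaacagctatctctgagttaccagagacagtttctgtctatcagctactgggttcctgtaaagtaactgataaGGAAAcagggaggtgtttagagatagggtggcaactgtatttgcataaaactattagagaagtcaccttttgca
Il1rl1 downstream start, chr1:40439379-40439628, plus strand: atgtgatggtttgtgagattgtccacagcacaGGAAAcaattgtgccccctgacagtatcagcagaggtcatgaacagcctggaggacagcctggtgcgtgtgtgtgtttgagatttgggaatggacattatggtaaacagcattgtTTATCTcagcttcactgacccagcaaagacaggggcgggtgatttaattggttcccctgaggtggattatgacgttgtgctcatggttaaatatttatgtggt
The Il1a window held an AP-1 match close to the start and 1 NFAT match, and the Il1b window held 3 NFAT matches. The upstream Il33 window held 1 NFAT match and the downstream one held no match. Both Il1rl1 windows held 1 GATA and 1 NFAT match. Of 32851 windows of the same length over all genes, 55.6% held the NFAT core, 9.99% the GATA core and 6.75% the AP-1 core, and 17.6%, 1.55% and 0.00913% held the cores for NF-kB, CREB and the glucocorticoid response element, which had no match in the printed windows. The matches are a description of letters and were not tested as sites.

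Il1rl1 stood far above every other member. Per kilobase of exon, its level averaged 684 RPKM (reads scaled to exon length and library total) over the 16 samples and ranked 58th of 37693 genes with an annotated length. It took between 0.281% and 0.7% of all reads on genes in a sample. The next member was Il18r1 at 9.13 RPKM, followed by Il1a at 5.70, Il1b at 4.03, Il1rap at 2.00 and Il33 at 1.10 RPKM, where the means of Il1a, Il1b and Il33 were carried by the IgE DNP samples. Il1r1 and Il1r2, at 0.332 and 0.328 RPKM, overlapped in their ranges over samples, and Il18 and Il1rn, at 0.194 and 0.0142 RPKM, were lowest. Within a sample, Il1rl1 exceeded its accessory chain Il1rap by 207 to 566 times per length. Gene counts sum all transcripts of Il1rl1, including those for the soluble and the membrane form of ST2.

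**Figure D1:**
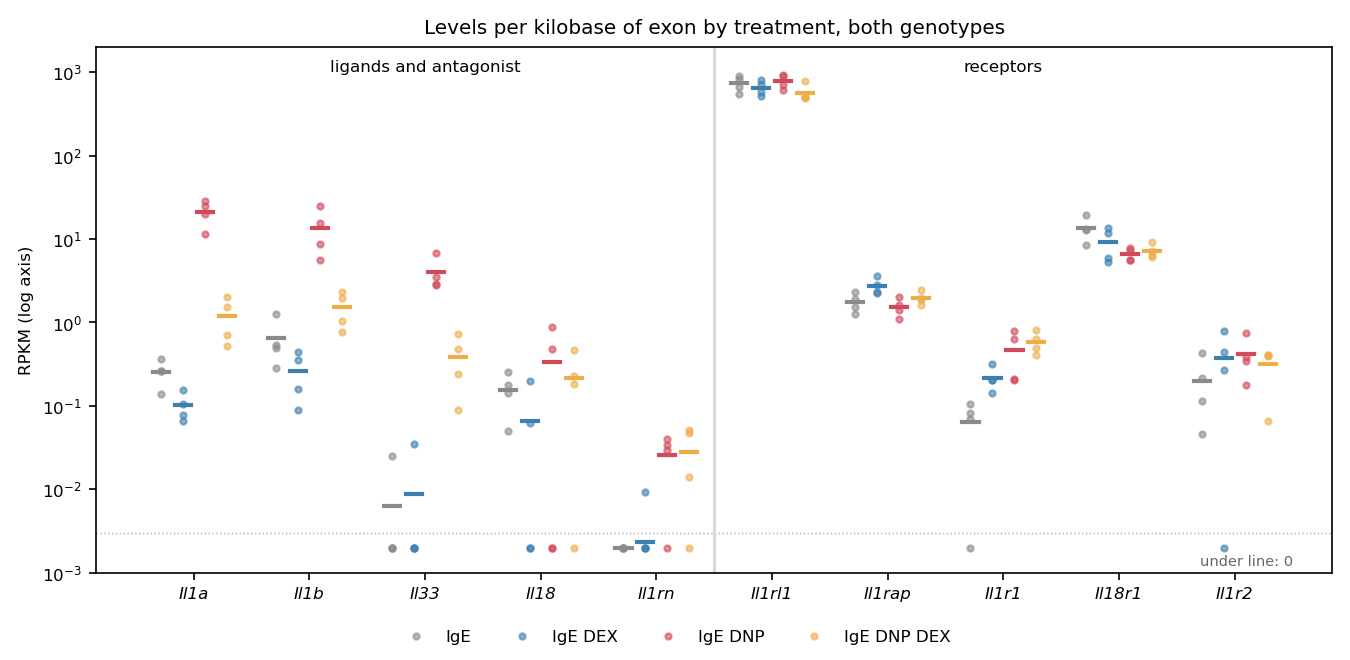
Levels of the 10 members per kilobase of exon (RPKM, log axis) in the 4 treatments. Points are the 4 samples of a treatment, both genotypes together, short bars are their means, and points under the dotted line had a count of 0. Il1rl1 lies far above the other members in every treatment, while Il1a, Il1b and Il33 are highest in IgE DNP.

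Il1r2, Il1r1, Il1rl1 and Il18r1 lie in this order in a cluster on the plus strand of chromosome 1 (GRCm38), between the start of Il1r2 at position 40074079 and the end of Il18r1 at position 40500854. Il1a (129299610 to 129309972) and Il1b (129364570 to 129371139) lie on the minus strand of chromosome 2, Il33 (29925114 to 29960718) on chromosome 19, Il1rap (26581704 to 26730117) on chromosome 16, Il18 (50554827 to 50581840) on chromosome 9 and Il1rn (24336853 to 24351494) on chromosome 2. In all, 3 members overlap exons of an antisense gene, namely Il1a with Gm14023 over 222 bases, Il1b with Il1bos over 25 bases and Il1rap with Gm20319 over 552 bases. The libraries were stranded, but whether counting used strand is not given, so reads of a member and its antisense partner in these bases cannot be told apart.

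Totals on genes ranged from 8612531 to 22143526 reads a sample, so that 3 counts corresponded to between 0.126 and 0.391 CPM (counts scaled to the library total) and low members rest on few reads. The cells carried mast cell markers, all 13 of which were detected in every sample (Kit 1805 to 4679 CPM, Fcer1a 6515 to 12620 CPM). Macrophage markers, of cells known to make IL-1, summed to at most 13.4 CPM over 7 genes. Lyz2 (3.123 CPM or more) and Adgre1 (1.047 to 6.385 CPM) were found in every sample, whereas C1qa was at 0 in all 16. The part of macrophages in the low Il1a and Il1b values without antigen was not tested. Neutrophil markers summed to at most 2.37 CPM over 8 genes. Ptpn22 had 11.3 to 175 CPM in PEP+/+ and 0 to 3.03 CPM in PEP-/- samples, in the direction of the labels. Samples of the same replicate number deviated together across conditions, and a fit with the replicate number as a block is given beside each result on a member whose call it changed, and as counts for the further gene lists.

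The ligand genes Il1a, Il1b and Il33 and the receptor gene Il1r1 were higher 1 h after antigen, and Il18r1 was lower. In this comparison, 5 of the 8 members that passed the filter on low counts were called at an adjusted p under 0.05 (edgeR quasi-likelihood test, Benjamini-Hochberg), 4 higher and 1 lower, where 16.7% of all 13305 genes tested were called, 9.07% higher and 7.58% lower. The median log2 fold change was 2.00 over the 8 members and -0.001 over all genes tested. With the block the same 5 members were called in the same directions, where 37.9% of all genes were called, 18.6% higher and 19.3% lower. The remaining members, Il1rn and Il18, did not pass the filter and were not tested. Il1a, at 2 to 14 counts a sample without antigen, and Il33, at 0 to 1, passed it through the samples with antigen. The share of members called and their median are therefore a description and no test of the members as a set, here and in the later comparisons.

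Il1a, which encodes IL-1α, had 0.514 and 0.520 CPM in the 2 PEP+/+ IgE samples and 39.2 and 49.6 CPM after antigen. In PEP-/- cells it had 0.273 and 0.720 CPM with IgE and 22.6 and 56.3 CPM after antigen. No sample of one treatment reached the range of the other. The antisense gene Gm14023 stayed at 0.367 to 0.771 CPM with IgE and 0.563 to 1.76 CPM after antigen. The log2 fold change over both genotypes was 6.30 (SE 0.52, adjusted p = 1.16e-05 by edgeR), 6.40 in PEP+/+ and 6.19 in PEP-/- cells.

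Il1b, which encodes IL-1β, had 0.955 and 2.43 CPM in PEP+/+ IgE samples and 16.7 and 47.1 CPM after antigen. In PEP-/- cells the values were 0.546 and 1.03 CPM with IgE and 10.8 and 29.7 CPM after antigen. The treatments did not overlap. The log2 fold change was 4.43 (SE 0.56, edgeR adjusted p = 0.000276), 4.25 in PEP+/+ and 4.62 in PEP-/- cells. Per kilobase, Il1a was below Il1b in every IgE sample, at 0.207 to 0.676 times its level, and above it in every IgE DNP sample, at 1.02 to 2.26 times. The ratios with IgE rest on few reads, 3 to 14 counts a sample for Il1a and 6 to 28 for Il1b, and the change of order was not tested. The antisense gene Il1bos ranged from 1.32 to 3.73 CPM with IgE and from 2.93 to 12.8 CPM after antigen, and its part in the Il1b values was not tested.

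Il33, which encodes the alarmin IL-33, went from almost no reads to a clear signal. PEP+/+ IgE samples held 1 and 0 counts and PEP-/- IgE samples 0 and 0, against 85 and 89 counts in PEP+/+ and 103 and 360 counts in PEP-/- cells after antigen, or 8.04, 10.0, 8.45 and 19.8 CPM. Summed over genotypes and scaled by library size, 637 counts against 1 gave a ratio of 711, with an exact 95% counting interval from 127 to 2.81e+04 that covers counting error only. In PEP-/- cells both IgE samples were at 0. Taken against a floor of 3 counts over the group of 2 samples, Il33 was 155-fold higher after antigen. This depends on the floor chosen, and the exact 95% counting interval began at 125. The gene was called higher (edgeR adjusted p = 0.00019), and its fitted log2 fold change of 9.07 depends on the prior count and moved to 10.29 without PEP+/+ IgE replicate 1.

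**Figure D2:**
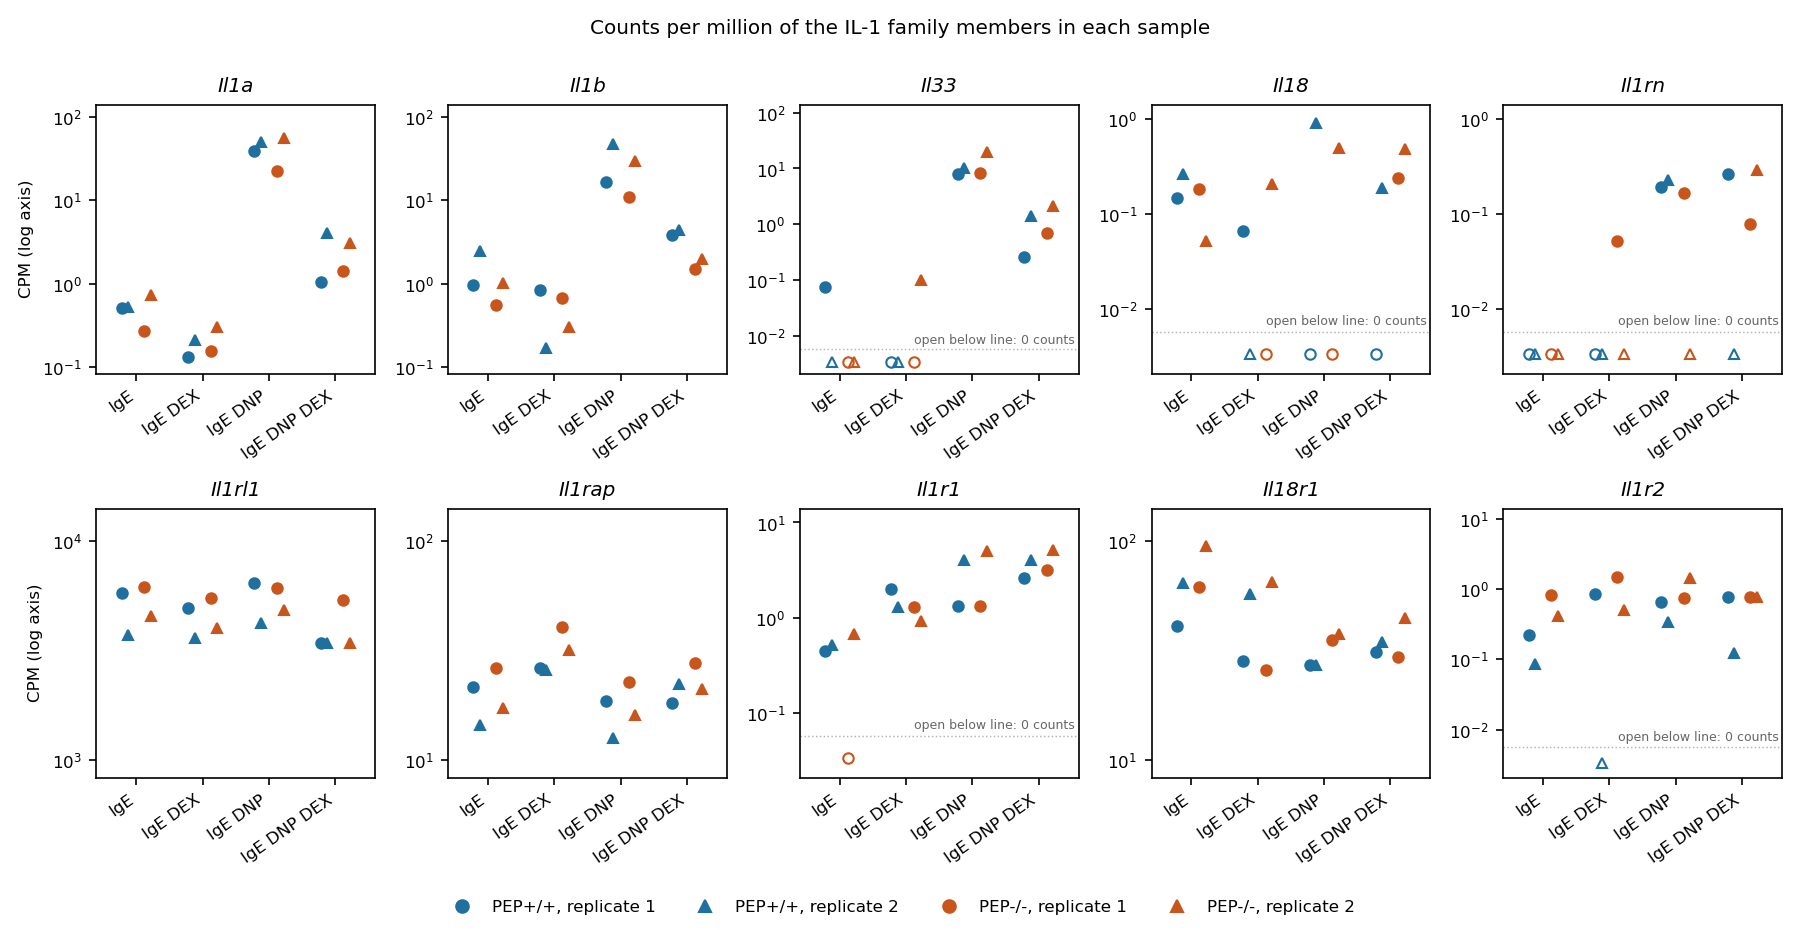
Library-scaled counts (CPM, log axis) of each member in every sample, by treatment. Colour gives the genotype and the symbol gives the replicate, and open symbols below the dotted line mark samples with 0 counts. Il1a, Il1b and Il33 separate IgE DNP from IgE without overlap, whereas Il1rl1 and Il1rap overlap between these treatments.

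Il1r1, the signalling receptor for IL-1, had 0.441 and 0.520 CPM in PEP+/+ IgE samples and 0 and 0.669 CPM in PEP-/- IgE samples. After antigen it had 1.32 and 4.05 CPM in PEP+/+ and 1.31 and 5.06 CPM in PEP-/- cells. The treatments did not overlap, with replicate 2 well above replicate 1 after antigen in both genotypes. The log2 fold change was 2.76 (SE 0.68, edgeR adjusted p = 0.017). The call was lost without PEP+/+ IgE replicate 1 (adjusted p = 0.0642), PEP+/+ IgE replicate 2 (0.0567), PEP+/+ IgE DNP replicate 2 (0.0724) or PEP-/- IgE DNP replicate 2 (0.0881), and without PEP-/- IgE replicate 2 the value was 5.45.

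Il18r1, the ligand-binding chain of the IL-18 receptor, had 41.0 and 64.4 CPM in PEP+/+ and 61.5 and 94.4 CPM in PEP-/- IgE samples. After antigen it had 27.1 and 27.0 CPM in PEP+/+ and 35.3 and 37.6 CPM in PEP-/- cells. All 4 IgE DNP samples were below all 4 IgE samples. The log2 fold change was -1.03 (SE 0.31, edgeR adjusted p = 0.0432), and the call was lost in 6 of the 8 fits that left out a sample, with adjusted p up to 0.153 without PEP-/- IgE replicate 2. The 6 were all but those without replicate 1 of PEP+/+ IgE or of PEP-/- IgE.

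Il1rl1 did not pass the threshold with antigen, at a log2 fold change of 0.10 (SE 0.23, edgeR adjusted p = 0.864). Its levels were 3727 to 6141 CPM with IgE and 4236 to 6405 CPM after antigen. Il1rap, the accessory chain for the IL-1 and IL-33 receptors, had 14.5 to 26.2 CPM with IgE and 12.6 to 22.6 CPM after antigen (log2 fold change -0.19, SE 0.22), and Il1r2 had 0.0867 to 0.820 CPM against 0.338 to 1.43 CPM (1.25, SE 0.93). For these 3 receptors the treatments overlapped.

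In cells given dexamethasone and antigen, the 3 induced ligands were lower than with antigen alone. Il1a, Il1b and Il33 were called lower and no member was called higher, where 10.7% of all genes tested were called and 4.99% were called lower. The median log2 fold change over the 8 members was -0.45, against -0.01 over all genes. This comparison uses the same IgE DNP samples as the antigen comparison, so both carry any deviation of those samples.

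Il1a had 1.04 and 4.00 CPM in PEP+/+ and 1.41 and 3.05 CPM in PEP-/- IgE DNP DEX samples, against 22.6 to 56.3 CPM over the 4 IgE DNP samples. The treatments did not overlap. Its log2 fold change was -4.11 (SE 0.45, edgeR adjusted p = 0.000177), and -4.76 without PEP+/+ IgE DNP DEX replicate 2. It was called in each genotype, at -4.06 in PEP+/+ (adjusted p = 0.00502) and -4.16 in PEP-/- cells (adjusted p = 0.00424, edgeR).

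Il1b had 3.78 and 4.37 CPM in PEP+/+ and 1.49 and 2.00 CPM in PEP-/- IgE DNP DEX samples, against 10.8 to 47.1 CPM with antigen alone. Its log2 fold change was -3.25 (SE 0.53, edgeR adjusted p = 0.00242). Il33 had 0.260 and 1.37 CPM in PEP+/+ and 0.704 and 2.09 CPM in PEP-/- cells, against 8.04 to 19.8 CPM, a log2 fold change of -3.34 (SE 0.59, edgeR adjusted p = 0.0066) that was -4.19 without PEP+/+ IgE DNP DEX replicate 2. For both genes all 4 samples with dexamethasone were below all 4 without.

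Among receptors, Il1rl1 was at 3413 to 5389 CPM in IgE DNP DEX against 4236 to 6405 CPM in IgE DNP samples. It was lower in all 4 same-numbered pairs, by a log2 fold change of -0.48 (SE 0.23, edgeR adjusted p = 0.243) without and -0.47 (SE 0.12, adjusted p = 0.00832) with the block. Il1rap, at 18.2 to 27.7 CPM, was higher in 3 of 4 pairs, by 0.36 (SE 0.22, adjusted p = 0.366) without and 0.39 (adjusted p = 0.0495) with the block. With the block 5 of 8 members were called, 1 higher and 4 lower, where 33.3% of all genes were called, 15.9% higher and 17.4% lower. Il1r1 (0.34, SE 0.60), Il18r1 (0.15, SE 0.31) and Il1r2 (-0.42, SE 0.88) were called in neither fit.

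Without antigen, no member was called for dexamethasone (edgeR, where 9.37% of all genes were called), and 3 were called with the block, 2 higher and 1 lower, where 26.7% of all genes were called, 12.9% higher and 13.8% lower. Il1rap had 25.8 and 26.4 CPM in PEP+/+ and 31.6 and 40.6 CPM in PEP-/- IgE DEX samples, against 14.5 to 26.2 CPM with IgE alone. It was higher in all 4 same-numbered pairs, by a log2 fold change of 0.63 (SE 0.21, adjusted p = 0.103), and by 0.65 (adjusted p = 0.00248) with the block. Il1r1 had 2.02 and 1.30 CPM in PEP+/+ and 1.30 and 0.915 CPM in PEP-/- IgE DEX samples, all above the 4 IgE samples. Its value was 1.65 (SE 0.68, adjusted p = 0.198), and 1.73 (adjusted p = 0.0271) with the block, and it was 4.35 without PEP-/- IgE replicate 2. Il18r1 was lower in 4 of 4 pairs, at -0.55 (SE 0.31, adjusted p = 0.395) and -0.59 (adjusted p = 0.021) with the block, although its ranges of 25.8 to 64.5 CPM with and 41.0 to 94.4 CPM without dexamethasone overlapped.

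The ligands were already low without antigen. Il1a had 0.130 and 0.210 CPM in PEP+/+ and 0.156 and 0.305 CPM in PEP-/- IgE DEX samples, which held 2 to 5 counts each, and was lower than with IgE in all 4 pairs (log2 fold change -1.40, SE 0.65, edgeR adjusted p = 0.269). Il1b, at 0.168 to 0.847 CPM, was lower in 3 of 4 pairs (-1.22, SE 0.61, adjusted p = 0.313). Il33 had 1 count in all 4 samples together in either treatment, and no fold is given. Il1rl1 was lower in all 4 pairs at -0.16 (SE 0.23, adjusted p = 0.843).

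**Figure D3:**
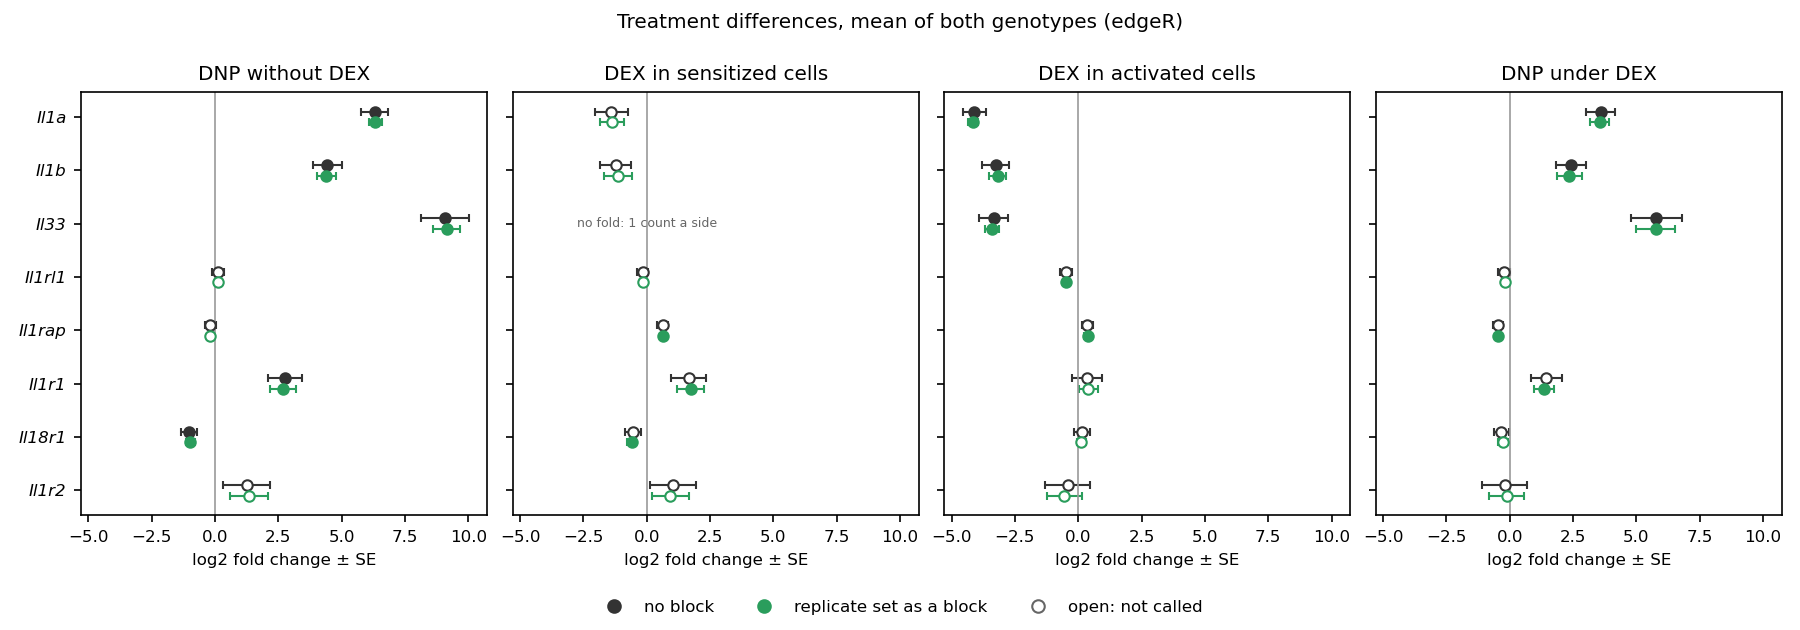
Log2 fold changes (horizontal axis, with SE bars) of the 8 tested members for antigen and dexamethasone, averaged over both genotypes, by edgeR without (black) and with the replicate number as a block (green). Filled points were called at an adjusted p under 0.05. The Il33 values for antigen depend on the prior count, and none is drawn for DEX in sensitized cells. Il1a, Il1b and Il33 move furthest, up with antigen and down with dexamethasone in activated cells.

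Antigen still raised the 3 ligands under dexamethasone. Comparing IgE DNP DEX with IgE DEX, 3 of 8 members were called, all higher, where 12.6% of all genes tested were called and 7.19% were called higher. Il1a went from 0.130 to 0.305 CPM to 1.04 to 4.00 CPM, a log2 fold change of 3.58 (SE 0.57, edgeR adjusted p = 0.00186) that was 2.93 without PEP+/+ IgE DNP DEX replicate 2. Il1b went from 0.168 to 0.847 CPM to 1.49 to 4.37 CPM, at 2.40 (SE 0.59, adjusted p = 0.0217). For both genes every sample with antigen was above every sample without. The Il1b call was lost without PEP+/+ IgE DEX replicate 2 (adjusted p = 0.0811), PEP-/- IgE DEX replicate 1 (0.0516) or 2 (0.0775), or PEP-/- IgE DNP DEX replicate 2 (0.0689), and the value was 3.12 without PEP+/+ IgE DEX replicate 1.

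Il33 held 2, 22, 9 and 22 counts in the 4 IgE DNP DEX samples against 1 count in all IgE DEX samples together. The ratio of scaled sums was 79.9, with an exact 95% counting interval from 13.8 to 3.21e+03 (edgeR adjusted p = 0.00579). The fitted log2 fold change of 5.79 depends on the prior count and lay between 4.93, without PEP+/+ IgE DNP DEX replicate 2, and 6.98, without PEP-/- IgE DEX replicate 2. It was 5.12 without PEP-/- IgE DEX replicate 1.

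With the block, 5 members were called for antigen under dexamethasone, 4 higher and 1 lower, where 37.6% of all genes were called, 18.4% higher and 19.2% lower. The additional members were Il1r1, which was higher in all 4 pairs (log2 fold change 1.45, SE 0.61, adjusted p = 0.159 without and 1.35, adjusted p = 0.0173 with the block, edgeR), and Il1rap, which was lower in all 4 pairs (-0.46, SE 0.21, adjusted p = 0.197 without and -0.45, adjusted p = 0.0194 with the block). Il1r1 reached 2.60 and 4.06 CPM in PEP+/+ and 3.13 and 5.14 CPM in PEP-/- IgE DNP DEX samples. Its means by condition therefore ran from IgE DNP DEX over IgE DNP and IgE DEX to IgE in both genotypes. IgE DNP overlapped with IgE DNP DEX in both genotypes and with IgE DEX in PEP+/+ cells. In PEP-/- cells the lower IgE DNP sample lay only just above the higher IgE DEX sample. For Il1a and Il33 the order ran instead from IgE DNP over IgE DNP DEX to both conditions without antigen, with no overlap at either step.

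The difference between the antigen responses with and without dexamethasone was tested as an interaction. No member was called (edgeR), where 0.331% of all genes were called, and 2 of 8 members had an unadjusted p under 0.05, Il1a (0.00812) and Il1b (0.0276), as had 3.65% of all genes. The log2 fold changes of the interaction were -2.71 (SE 0.85, adjusted p = 0.697) for Il1a and -2.03 (SE 0.80, adjusted p = 1) for Il1b. With the block Il1a was called at -2.78 (SE 0.64, adjusted p = 0.0422) and Il1b was not (-2.04, adjusted p = 0.206), where 1.57% of all genes were called and 1.07% were called lower. For Il33, at 0 to 1 counts without antigen, no interaction is given.

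Each genotype was also tested alone, with 2 samples against 2. For antigen without dexamethasone, Il1a, Il1b and Il33 were called higher in both PEP+/+ and PEP-/- cells (edgeR, where 5.9% and 7.22% of all genes were called). The Il1a calls held without each of the samples, whereas the Il1b call was lost without PEP+/+ IgE replicate 1 (adjusted p = 0.0911), PEP+/+ IgE DNP replicate 2 (0.058) or either PEP-/- IgE replicate (0.0621 and 0.0506), and that of Il33 without PEP+/+ IgE replicate 2 (0.0664). With the block, Il1r1 and Il18r1 were called as well in both, where 21.1% and 26.2% of all genes were called. For dexamethasone in activated cells, Il1a was called lower in PEP+/+ and Il1a and Il1b in PEP-/- cells, where 3.03% and 3.28% of all genes were called. In PEP-/- cells the Il1a call was lost without IgE DNP DEX replicate 1 (adjusted p = 0.0635), and the Il1b call without either IgE DNP DEX replicate (0.219 and 0.152) or IgE DNP replicate 2 (0.217). Il1b in PEP+/+ cells (log2 fold change -2.96, edgeR adjusted p = 0.0535) and Il33 in both (adjusted p = 0.0733 and 0.0675) were not called without the block. They were called with it, as was Il1rl1 in PEP+/+ cells (-0.59, adjusted p = 0.0255), where 18.9% and 18.1% of all genes were called. With no filter on low counts these Il1b and Il33 values were called too.

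For antigen under dexamethasone, Il1a was called higher in both genotypes (log2 fold change 3.84, adjusted p = 0.0199 in PEP+/+ and 3.33, adjusted p = 0.0483 in PEP-/- cells, edgeR), where 3.84% and 3.98% of all genes were called. The PEP-/- call was lost without any 1 of its 4 samples (adjusted p from 0.0555 to 0.328), and the PEP+/+ call was lost without either IgE DEX replicate (0.128 and 0.183) or IgE DNP DEX replicate 2 (2.51, adjusted p = 0.172). Both were lost in a fit of only the conditions compared. With the block, Il33 was called in both and Il1b in PEP+/+ cells (edgeR adjusted p = 0.00346), but not in PEP-/- cells (0.164), where 22.3% and 19.7% of all genes were called. For dexamethasone without antigen no member was called in either genotype (3.18% and 3.34% of all genes). With the block, 2 were called in PEP-/- cells, Il1rap higher (0.75, edgeR adjusted p = 0.0166) and Il18r1 lower (-0.86, adjusted p = 0.0306), and none in PEP+/+ cells, where 14.7% and 15.6% of all genes were called.

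Il1rn and Il18 stayed close to the detection limit. Il1rn, the antagonist of IL-1, held 0 counts in all 4 IgE samples, 1 count in the IgE DEX samples together, and 6 counts each in the IgE DNP and IgE DNP DEX samples together, at most 3 in a sample. Il18 held 0 to 9 counts a sample, with 8 in IgE, 17 in IgE DNP, 3 in IgE DEX and 11 in IgE DNP DEX in all. No fold is given for either gene.

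Loss of PEP was not accompanied by a call for any member within a treatment. Averaged over treatments, no member was called (edgeR, where 1.59% of all genes were called), and the median log2 fold change was 0.24 over the 8 tested members against 0.024 over all genes. This median lies between Il1rl1 (0.18) and Il33 (0.29). The Il33 value rests in part on 0 to 1 counts a sample without antigen, so the median cannot be read as a shift of the members. With the block, Il1rap was called higher in PEP-/- cells at 0.31 (adjusted p = 0.046), against 0.33 (SE 0.15, adjusted p = 0.366) without it, where 17.4% of all genes were called and 7.72% were called higher. It was higher in 7 of 8 same-numbered pairs. Il1r2 was higher in 8 of 8 pairs, at 1.33 (SE 0.64, adjusted p = 0.387) and 1.45 (adjusted p = 0.0523) with the block, on 0 to 29 counts a sample. Il1b was lower in 7 of 8 pairs (-0.69, SE 0.40, adjusted p = 0.497). Whether the treatments of the same genotype and number shared a culture is not given. The 8 pairs may therefore not be independent, and the p-values averaged over treatments may be too small.

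Il1a, Il1r1, Il18r1 and Il1rl1 differed between genotypes by -0.04 (SE 0.43), -0.08 (SE 0.45), 0.31 (SE 0.22) and 0.18 (SE 0.16) on the log2 scale. For Il1a and Il1r1 the SE exceeded the difference. Il18r1 and Il1rl1 were not called either (edgeR adjusted p = 0.611 and 0.726 without, 0.126 and 0.161 with the block). For all of these genes, neither direction nor equality of the genotypes can be read from the values. Within a treatment no member was called by edgeR with or without the block, and Ptpn22 was the only gene called without it, 1 of 13305 or 0.00752%. With the block, 1.69%, 1.86%, 0.564% and 0.0225% of all genes were called after IgE, IgE DNP, IgE DEX and IgE DNP DEX. In IgE DNP samples, Il33 was at 8.04 and 10.0 CPM in PEP+/+ and 8.45 and 19.8 CPM in PEP-/- cells (0.65, SE 0.73). No member showed a called difference between genotypes in its response to antigen or dexamethasone, where 0 of all genes were called by edgeR with or without the block.

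**Figure D4:**
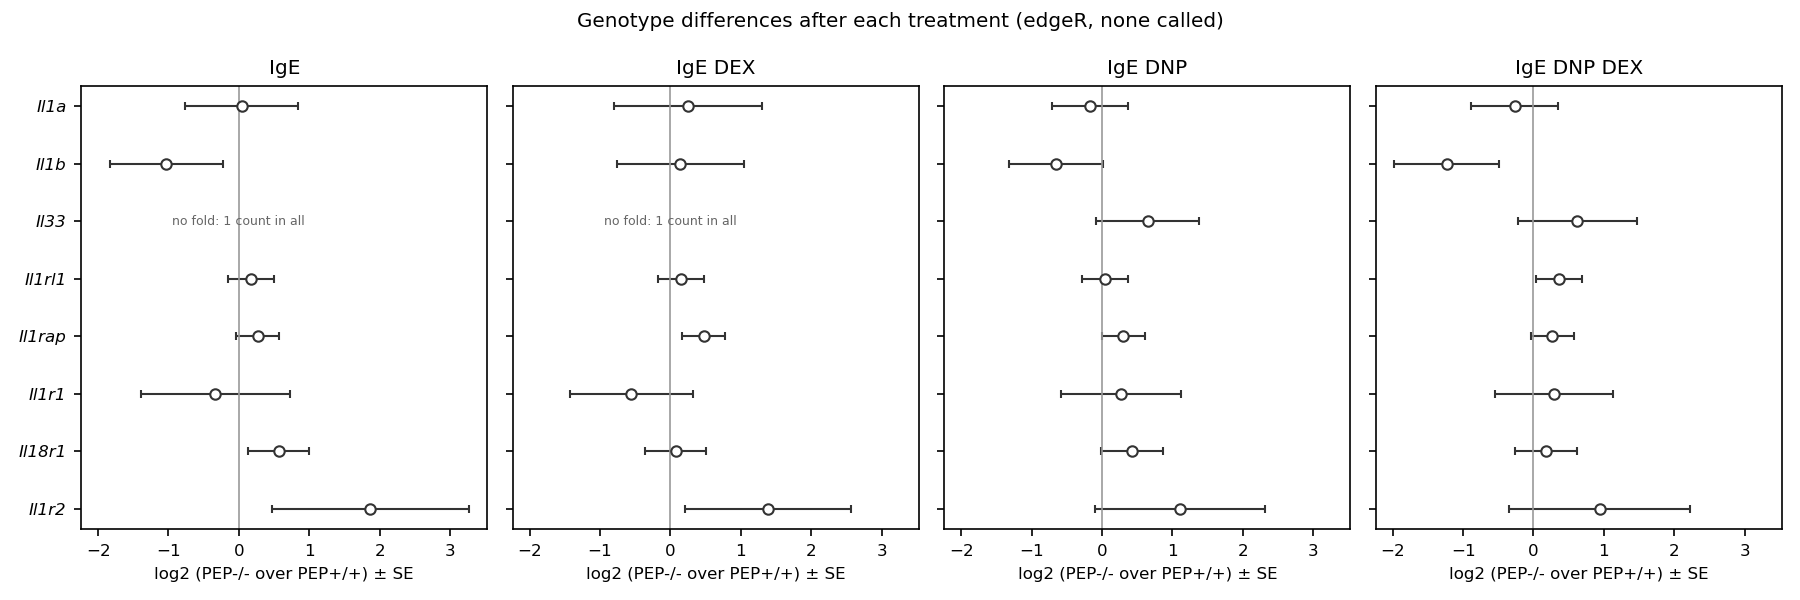
Log2 ratio of PEP-/- over PEP+/+ cells (horizontal axis, with SE bars) for the 8 tested members after each treatment, by edgeR. Open points mark that none was called, and Il33 has no value without antigen. Il1b lies below 0 in 3 of the 4 treatments and Il1r2 above 0 in all 4, with wide errors.

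The remaining genes of the pathway came from lists that, like the members, were chosen with earlier results of these data known. Their counts are therefore a description and no test of the pathway. The signalling list includes genes of NF-kB feedback. Of 22 genes of the signalling chain below these receptors, all tested, 11 rose and 2 fell with antigen, where 9.07% of all genes were called higher and 7.58% lower. With the block 13 rose and 3 fell, where 37.9% of all genes were called. The largest rises were in Map3k8, a kinase upstream of ERK (log2 fold change 3.78, SE 0.24), and in genes of NF-kB feedback, namely Nfkbia (3.76, SE 0.31), Tnfaip3 (3.22, SE 0.21) and Nfkbiz (2.30, SE 0.53). Tab1 (-1.03, SE 0.25) and the adaptor Myd88 (-0.44, SE 0.11) fell. Their median was 0.60.

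Under dexamethasone alone 7 of these genes were called higher and 0 lower, where 5.4% of all genes were called higher and 3.98% lower. With the block Irak2 (-0.30, adjusted p = 0.0495), Ube2n (-0.24, adjusted p = 0.0467) and Nfkbiz (-0.46, adjusted p = 0.00691) were called lower as well (edgeR), where 26.7% of all genes were called. The 7 were led by Nfkbia (2.96, SE 0.30), which encodes IkBα, followed by Tnfaip3 (1.47, SE 0.20), Map3k8 (1.42, SE 0.22) and Nfkb1 (1.25, SE 0.21). In activated cells dexamethasone raised 1 of the 22, Irak3 (1.24, SE 0.16), which encodes an inhibitory IRAK, and lowered none, where 5.67% of all genes were called higher. The fit with the block called 4 higher and 4 lower, where 33.3% of all genes were called. Antigen under dexamethasone raised 8 and lowered 1, where 7.19% of all genes were called higher and 5.42% lower, and with the block it raised 12 and lowered 2, where 37.6% of all genes were called.

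The interaction was called negative for Nfkbia (-2.78), Map3k8 (-2.07) and Tnfaip3 (-1.64), where 0.331% of all genes were called. With the block Tollip (-0.80, edgeR adjusted p = 0.0057) and Nfkb1 (-1.32, adjusted p = 0.00135) were called negative too, where 1.57% of all genes were called. No gene of the list was called for PEP, and with the block 1 was higher and 2 were lower, where 17.4% of all genes were called.

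Of 11 genes that process these cytokines, 8 were tested, and 2 were called higher with antigen, where 9.07% of all genes were called higher. Nlrp3, a sensor of the inflammasome that matures IL-1β, rose with antigen (log2 fold change 2.69, SE 0.22), as did Casp4 (1.99, SE 0.29). With dexamethasone in activated cells Nlrp3 fell (-1.10, SE 0.21, edgeR adjusted p = 0.006), where 4.99% of all genes were called lower. Under dexamethasone antigen raised Casp4 (2.23, SE 0.29) and Nlrp3 (1.15, SE 0.21), where 7.19% of all genes were called higher. No gene of this list was called for dexamethasone in sensitized cells, the interaction or PEP. With the block the counts were 2 higher and 1 lower with antigen, where 37.9% of all genes were called. For dexamethasone 2 were higher and 1 lower in sensitized cells (26.7% of all genes), and 2 higher and 2 lower in activated cells (33.3%). Antigen under dexamethasone gave 3 higher and 1 lower, where 37.6% of all genes were called. For the interaction 1 was lower (Nlrp3, -1.52, edgeR adjusted p = 0.000662), where 1.57% of all genes were called. For PEP 1 was higher, where 17.4% of all genes were called. Of 11 further family genes only Il1rl2, Il18rap, Il18bp and Sigirr were tested. Il18rap, the accessory chain of the IL-18 receptor, rose with dexamethasone in sensitized (1.53, SE 0.15, adjusted p = 6.93e-05) and in activated cells (1.13, SE 0.15, adjusted p = 0.000617), while its partner Il18r1 was at -0.55 and 0.15. The other 3 were not called in these fits. With the block, Il1rl2 (1.44, edgeR adjusted p = 0.0215) and Il18rap (0.31, adjusted p = 0.0488) were called higher with antigen, and Sigirr, which encodes an inhibitory receptor, was called higher with dexamethasone in activated cells (0.51, adjusted p = 0.0045) and in PEP-/- cells (0.35, adjusted p = 0.0106). The 5 glucocorticoid target genes used as a check of the treatment rose with dexamethasone in both settings.

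Markers of other cell types were set beside these results. The 3 basophil markers found summed to 539 to 623 CPM in IgE, 750 to 882 CPM in IgE DNP, 228 to 393 CPM in IgE DEX and 431 to 479 CPM in IgE DNP DEX samples, mainly through Cd200r3. They were highest in IgE DNP and lowest in IgE DEX samples, as were Il1a and Il1b, and higher in IgE than in IgE DNP DEX samples, unlike these genes. Mcpt8, a basophil protease, had 8.03 to 62.8 CPM, and Prss34 had 10.2 to 59.4 CPM. With antigen their log2 fold changes were 0.34 (SE 0.65) and 0.01, against 0.50 (SE 0.12) for Cd200r3. Cd200r3 was called, whereas Mcpt8 and Prss34 were called in neither fit, also not for dexamethasone in sensitized or activated cells. The sums thus follow Cd200r3 and cannot be read as basophil content. The part of the basophil markers in the ligand values was not tested. Macrophage markers summed to 6.68 to 11.7 CPM in IgE and 5.51 to 13.4 CPM in IgE DNP samples, ranges that overlapped. The 6 dendritic cell markers summed to 15.7 to 44.0 CPM in IgE, 15.9 to 44.0 in IgE DNP, 15.3 to 30.4 in IgE DEX and 18.9 to 34.3 CPM in IgE DNP DEX samples, and none of the 4 tested was called without the block. With the block, Xcr1 (0 to 1.91 CPM) was called higher with antigen (log2 fold change 2.17, edgeR adjusted p = 0.0023) and lower with dexamethasone in activated cells (-2.86, adjusted p = 0.00106), and Itgax (0.781 to 17.0 CPM) lower with dexamethasone in sensitized and activated cells (-1.49 and -1.59).

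Among lymphoid markers, Cd3e and Ms4a1 were at 0 in all 16 samples, and Ncr1 (0.546 to 2.81 CPM), the only one tested, was called higher with antigen (1.31, edgeR adjusted p = 0.0331). The endothelial marker Pecam1, at 194 to 541 CPM and also carried by myeloid cells, was called with the block only, higher with antigen (0.34) and lower with dexamethasone in sensitized (-0.41) and activated cells (-0.63), while Cdh5 and Dcn were at 0 in all 16 samples. Of the erythroid markers, Hba-a1 (0.0550 to 6.12 CPM) rose with dexamethasone in both settings (3.65 and 4.33). The part of these markers in the results was not tested. In these bulk samples fewer cells of a type and less RNA per cell cannot be told apart.

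The replicate sets differed in the members too. Replicate 2 was higher than replicate 1 in 8 of 8 conditions for Il1a, in 7 of 8 for Il18r1 and in 6 of 8 for Il1b and Il1r1, and lower in 8 of 8 for Il1rl1 and in 7 of 8 for Il1rap and Il1r2. In PEP-/- IgE DNP cells, for example, Il1a had 22.6 and 56.3 CPM and Il1rl1 6111 and 4849 CPM. What the numbers stand for is not given.

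Across the 8 condition means of log2 CPM, the genes with a course most like each member were named by Pearson correlation, as a description over 8 points that share libraries. Closest to Il1a were Hexdc (0.9957), Slc37a2 (0.9942) and Gls2 (0.9938), and closest to Il1b were Clcf1 (0.9968), Tdg (0.9931) and Lrrfip2 (0.9897). Il33 was most like Gm14636 (0.9957), Arih1 (0.9949) and Bcl2l11 (0.9934). Among the receptors, the closest genes were Creb3l1 for Il1rap (0.9838), Sec63 for Il1r1 (0.9903), Tstd3 for Il18r1 (0.9772) and Pde8a for Il1r2 (0.9604).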

How the data were processed

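RNA of 16 BMMC samples was sequenced as paired-end stranded libraries. The authors mapped the reads to GRCm38 by TopHat2 and deposited a raw count per gene from HTSeq, with no normalization, and the strand setting is not given. The 10 members and the gene lists were chosen with earlier results of these data known. Rows naming no gene (29.1% to 49.6% of a file's total) were left out. In R 4.3.3, edgeR 4.0.16 (filterByExpr with a minimum count of 10, TMM, quasi-likelihood test) was fitted to all 8 conditions, and p-values were adjusted over all 13305 genes tested (Benjamini-Hochberg, 0.05), with a prior count of 0.125. CPM used TMM-scaled library sizes, and RPKM used GENCODE exon lengths. Same-numbered samples deviated together, at correlations from 0.453 to 0.799 over 28 pairs of conditions, with the pairing taken from the numbers and letters of the sample names. The numbers were therefore also fitted as a block. Alternatives were DESeq2 1.42.0, its size factors, other filters, only the conditions compared, a prior count of 2 and each sample left out. All 10 members were named in every condition, with up to 4 called genes per further list and the genes most like each member, up to 3, of which that for Il1rl1 is not reported here. The interval of a count ratio is exact binomial and covers counting error only. Concentrations of IgE differ between sources and are not printed.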

Additional observations from a re-analysis of the deposited data

Results flagged for a closer look

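The antigen response of Il1a differed between cells with and without dexamethasone when the replicate number was fitted as a block, by -2.78 on the log2 scale (SE 0.64, edgeR adjusted p = 0.0422, 4 same-numbered pairs a treatment). Without the block the value was -2.71 (adjusted p = 0.697), and among its alternatives the call was also made without the filter on low counts (adjusted p = 0.0023). It rests on 2 to 14 counts a sample in the conditions without antigen. No genotype difference in a response was called for any member, and groups of 2 samples allow no test for a sample that stands apart.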

How the results depend on the processing

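All 67 log2 fold changes compared kept their direction and their side of the threshold with DESeq2 size factors and with a prior count of 2, and 52 of 67 did so with the replicate block, where the other 15 passed the threshold. The cause of the changes below was not tested, except that the minimum of 10 counts in every sample removes all 3 induced ligands. That minimum gave 1 member called for DNP without DEX (main 5) and 0 for DEX in activated cells and DNP under DEX (main 3 each), and 0 in either genotype for these 3 comparisons. Averaged over genotypes, no filter gave 3 for DEX in sensitized cells and 2 for the interaction, and the block gave 3, 5, 5, 1 and 1 for DEX in sensitized cells, DEX in activated cells, DNP under DEX, the interaction and PEP (main 0, 3, 3, 0 and 0). Within a genotype, DNP without DEX went from 3 to 5 in both with no filter and with the block. In PEP+/+ cells, DEX in activated cells (main 1) gave 3 with DESeq2, no filter or only the conditions compared, and 4 with the block; DNP under DEX (main 1) gave 3 with DESeq2, no filter or the block and 0 with only the conditions compared; DEX in sensitized cells (main 0) gave 1 with no filter. In PEP-/- cells, DEX in sensitized cells gave 2 with the block, DEX in activated cells (main 2) gave 0 with only the conditions compared and 3 with the block, and DNP under DEX (main 1) gave 2 with DESeq2 or the block, 3 with no filter and 0 with only the conditions compared. With no filter, Il33 was also called for DEX in activated cells in PEP-/- cells (-3.37, edgeR adjusted p = 4.7e-07). The block changed no call in the other comparisons. Without 1 sample, the members called ranged from 3 to 5 for DNP without DEX and from 0 to 1 for DEX in sensitized cells, and in PEP-/- cells from 0 to 2 for DEX in activated cells and 0 in every fit for DNP under DEX, where PEP+/+ cells gave 0 to 1. Over all genes, the block raised the calls for DNP without DEX, DEX in sensitized cells, DEX in activated cells and DNP under DEX from 2216, 1247, 1418 and 1678 to 5042, 3548, 4429 and 5007, those for the interaction from 44 to 209 (101 with DESeq2, 107 with no filter) and those for PEP from 212 to 2310 (697 with DESeq2, 472 with no filter), and only the conditions compared gave 805 and 953 for DEX in activated cells and DNP under DEX. Without 1 sample these counts were 1390 to 1812 for DNP without DEX, 852 to 1317 for DEX in activated cells, 927 to 1584 for DNP under DEX, 12 to 27 for the interaction and 57 to 203 for PEP. With 1 sample left out at a time, 22 of 560 values turned their sign, none of them called. Their results ranged from -0.07 to 0.28 for Il1rl1 and DNP without DEX, -0.30 to 0.02 for Il1rl1 and DEX in sensitized cells, -0.59 to 0.07 for Il18r1 and DNP under DEX, -0.27 to 0.30 for Il1a and PEP, and -1.42 to 0.17 for Il1r1 and PEP. For Il1r2 they ranged from -1.69 to 1.58 for DEX in sensitized cells, -1.20 to 0.07 for DEX in activated cells, -0.98 to 2.52 for DNP under DEX and -2.22 to 1.27 for the interaction.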
